A study of Mus musculus with 4 samples.

Results

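Axon guidance genes encode the cues and receptors that steer growing axons, and the same molecules guide vessels, immune cells and epithelial sheets. The 64 genes described here are the mouse semaphorins of classes 3 to 7 (Sema), plexins (Plxn), neuropilins (Nrp), ephrins (Efn), Eph receptors (Eph), Slits, Robos and netrins (Ntn). They were picked by a rule on gene symbols from the 55291 symbols counted in each library, with earlier results of these data known. They divide into 35 ligands and 29 receptors. Semaphorins signal mainly through plexins, and most secreted class 3 semaphorins need a neuropilin as the binding partner. Ephrins are membrane-bound ligands of the Eph receptor tyrosine kinases, so that both cells in contact can receive a signal, and Slits act through Robos. In pancreas these families are known for roles in islet innervation, duct and acinar organisation and vessel growth.

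RNA of whole mouse pancreas was sequenced in 4 libraries, 2 of genotype Pdx1-Cre+, poh1f/+ (control) and 2 of genotype Pdx1-Cre+, poh1f/f (knockout). All 4 therefore carried Pdx1-Cre, a recombinase under a promoter of the pancreatic epithelial lineage, so that other cells of the tissue are not its target, and at least 1 floxed copy of poh1, the proteasome deubiquitinase gene now called Psmd14. Age is not given in the labels. Nor do they state that every library is a separate animal: the p-values rest on the variation among these 4 samples, part or all of which may be technical. In bulk RNA, fewer cells of a type and less RNA per cell cannot be told apart.

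The libraries held 22875618 to 27849730 counts, of which the guidance genes took 0.307% to 0.388%. Levels are CPM, counts scaled to a common library size with TMM, the trimmed-mean method of edgeR, and 1 count was worth 0.0342 to 0.0455 CPM. Changes are log2 fold changes, knockout minus control, with n = 2 libraries a group and ± giving the SE of the fit; paired values of a group are given in the order replicate 1, replicate 2. A gene was called when its edgeR adjusted p was under 0.05. Psmd14 itself was not called: it had 61.6 and 52.9 CPM in the controls and 65.9 and 65.2 CPM under the knockout label (0.20 ± 0.11 in log2 units, edgeR adjusted p = 0.26), so every direction below is one between labels. Markers of acinar, duct and islet cells were detected in all 4 libraries, but marker content differed, as the plot of marker sums shows. Summed markers of lymphatic endothelium, lymphocytes and fat were higher in both libraries labelled knockout, and those of duct, acinar, islet, fibroblast (mainly collagens) and macrophage cells were lower in both. Knockout replicate 2 stood apart, with 633 CPM of 10 intestinal epithelial markers against 42.3 to 70.3 in the other libraries and 289 CPM of 13 neuron markers against 50 to 106. The controls also differed from each other, with acinar sums of 11100 and 2270 CPM and pericyte and smooth muscle sums of 1740 and 3720 CPM.

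**Figure D1:**
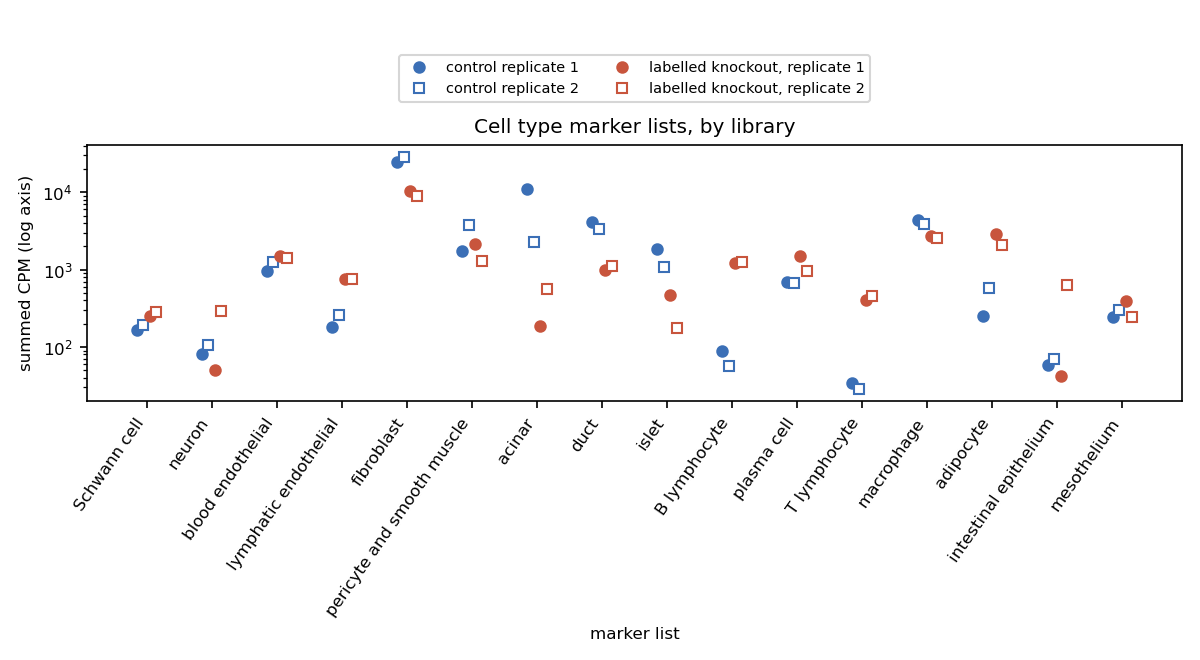
Summed CPM (log axis) of 16 marker lists in each of the 4 libraries; filled circles are replicate 1, open squares replicate 2, blue control and red labelled knockout. T lymphocyte markers rise from 28.3 to 34.2 CPM in controls to 399 to 451 CPM, duct markers fall from 3350 to 4170 CPM to 979 to 1120 CPM, and the square of knockout replicate 2 lies far above the rest for intestinal epithelium.

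Of the 64 guidance genes 61 passed the filter on low counts, 6 were higher, 11 were lower and 44 did not pass the test. The 6 that rose were all semaphorins: Sema3a, Sema3d, Sema4a, Sema4d, Sema4f and Sema6d. The 11 that fell were 4 Eph receptors (Epha3, Ephb2, Ephb3 and Ephb6), 2 B plexins (Plxnb1 and Plxnb2), 2 ephrins (Efna1 and Efna4), Sema6c, Sema7a and Slit2. These are 27.9% of the tested guidance genes against 22.1% of all 19134 genes tested, so the share called was close to the background. The higher calls were 9.84% against 12.1%, and the lower calls 18% against 9.95%. The 2 groups of libraries did not overlap in CPM for 43 of the 61 genes, or 70.5%, near the 68.1% of all genes. Called genes were selected by a test on the same values, so a lack of overlap in them adds no support. The median log2 fold change was −0.22, and −0.002 over all genes tested. The number lower was 3 without control replicate 1 and 5 without control replicate 2, and the number higher stayed between 4 and 6 when any 1 library was left out. DESeq2 called 6 higher and 13 lower, and limma-voom 6 and 11.

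**Figure D2:**
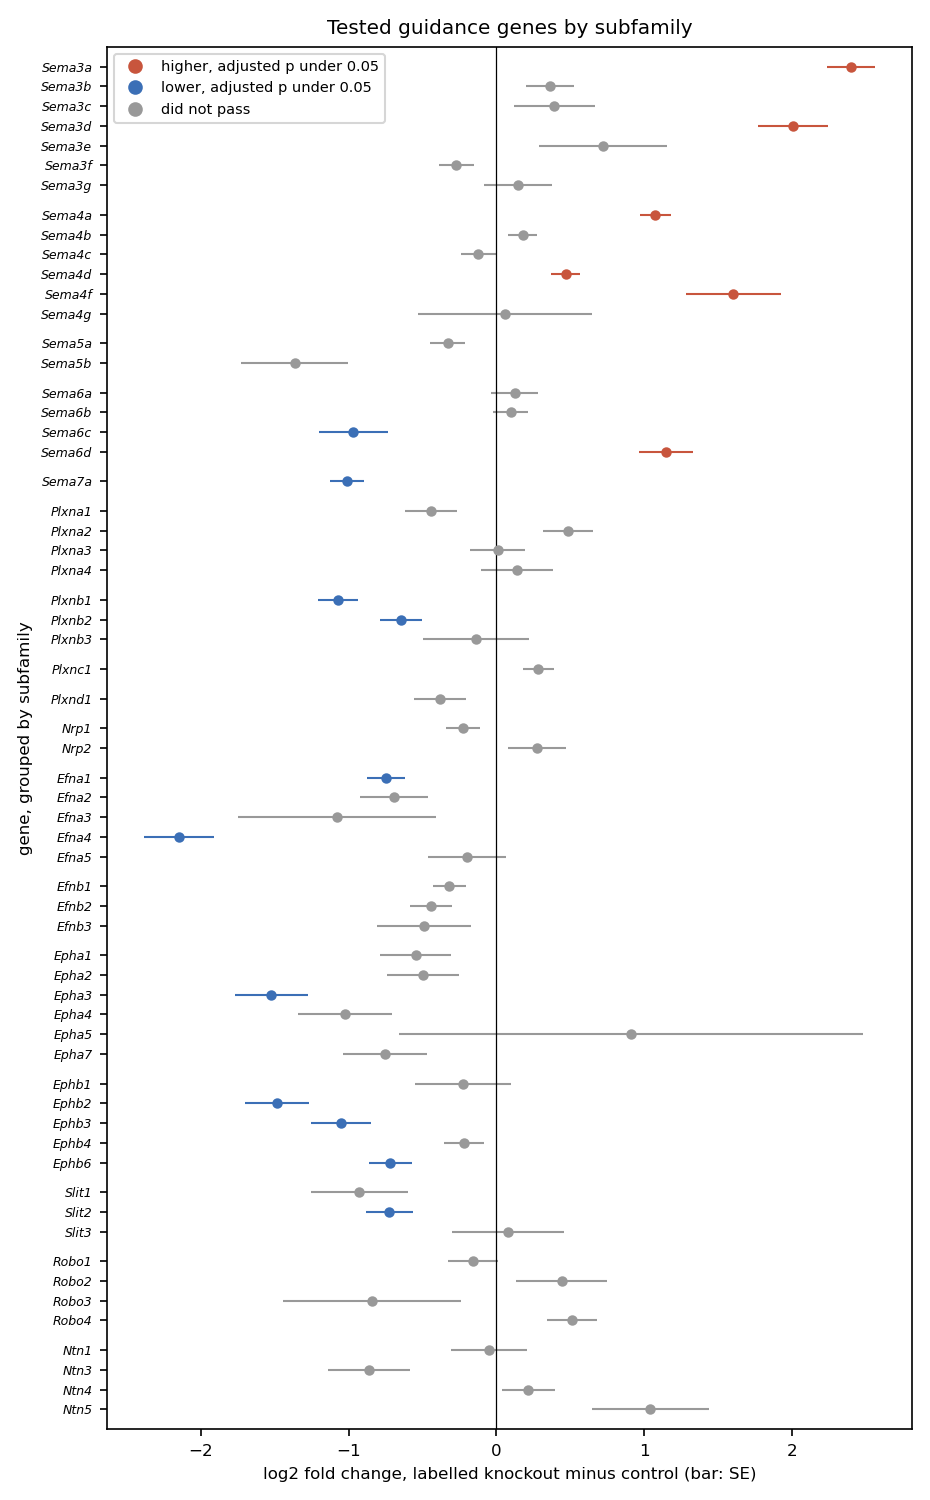
Log2 fold change (x axis, labelled knockout minus control) of each of the 61 tested guidance genes, grouped by subfamily on the y axis; points are edgeR estimates, bars SE, red higher, blue lower, grey did not pass. Red points occur only among semaphorins of classes 3, 4 and 6 (Sema3a at 2.40 is farthest right), and the 8 ephrins all lie left of 0.

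Ligands and receptors were also counted apart, beside 12.1% of all tested genes called higher and 9.95% called lower. Of 35 ligands 6 rose and 5 fell (median −0.05). Of 26 tested receptors 6 fell by edgeR and limma-voom and 7 by DESeq2, which adds Epha4. By each of these tools 0 rose, and 3 had an unadjusted p under 0.05 in the higher direction (Plxna2, Plxnc1 and Robo4, named here for that count). The receptors' median was −0.30, and the difference between the classes was not tested. The low-count filter left out 3 receptors, Epha6, Epha8 and Epha10, which had at most 8 counts in any library.

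The 20 semaphorins had a median log2 fold change of 0.16, with 6 higher, 2 lower and 12 not called. Over all tested genes 12.1% were called higher and 9.95% lower. The subfamily counts below are to be read beside these shares, and each rests on few genes. Those of class 3 are secreted ligands, and 2 of the 7 rose (median 0.39). Sema3a, the founding repellent cue of the class, which binds Nrp1 with an A plexin, had 6.5 and 7.74 CPM in the controls and 35.3 and 39.95 CPM under the knockout label. Both libraries labelled knockout lay far above both controls, a 5.28-fold rise (2.40 ± 0.17 in log2 units, edgeR adjusted p = 0.00262). Sema3d, a relative that acts in vascular patterning, had 12.8 and 20.1 CPM in the controls and 63.6 and 68.7 CPM under the knockout label. The groups were again well apart, with a 4.02-fold rise (2.01 ± 0.23 in log2 units, edgeR adjusted p = 0.008). Per kilobase of merged exon, the mean level of Sema3a was 0.513 and 2.71 CPM per kb in controls and labelled knockout, and that of Sema3d 1.91 and 7.7. Both thus stayed, on this scale, below Sema3f, a ligand that prefers Nrp2 and the most abundant class 3 member per kilobase (14.2 and 11.8). The scale uses GENCODE M21 exon lengths, which may differ from the unknown annotation used for counting. Without length scaling Sema3d exceeded Sema3f under the knockout label, with means of 66.2 and 61.1 CPM. Sema3a made up 1.41% and 1.34% of the class 3 level per kilobase in controls and 5.04% and 6.4% in the libraries labelled knockout; for Sema3d these shares were 4.47% and 5.64%, and 14.7% and 17.8%. Sema3f did not pass (−0.27 ± 0.12 in log2 units, edgeR adjusted p = 0.162), nor did Sema3b, Sema3c, Sema3e and Sema3g, whose log2 fold changes were between 0.15 and 0.72. Sema3c, an attractive cue of vessels and epithelia, split the libraries labelled knockout, at 66 and 38.5 CPM, with controls at 36.2 and 43.4; it was called higher with knockout replicate 2 left out (0.73, edgeR adjusted p = 0.0228). Lymphatic endothelial markers were higher in the same libraries (5 of 7 called, summed 180 to 259 CPM in controls and 750 to 758 CPM), and adipocyte markers too (7 of 8 called, 255 to 580 and 2110 to 2870 CPM, with Ucp1 at 0 in at least 1 library). Their part in the rise was not tested.

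Sema3d and Sema3a are also neighbours on chromosome 5 (GRCm38), 536.5 kb apart (Sema3d at chromosome 5, 12383385 to 12588948, plus strand; Sema3a at chromosome 5, 13125414 to 13602565, plus strand), with Sema3e 422.7 kb beyond Sema3a. Sema3e, the ligand that binds Plxnd1 without a neuropilin, had 2.09 and 3.51 CPM in the controls and 5.98 and 3.29 CPM under the knockout label and did not pass (0.72 ± 0.44 in log2 units, edgeR adjusted p = 0.284). The 250 bases before the RefSeq start (GRCm38.p6) of both genes are printed because they were the guidance genes with the largest rises. For Sema3a that start lies inside the longer gene model of GENCODE M21. Capitals mark a match to 1 of 5 motifs searched on both strands, here the CCAAT box.

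Sema3a, chr5:13396534-13396783, plus strand: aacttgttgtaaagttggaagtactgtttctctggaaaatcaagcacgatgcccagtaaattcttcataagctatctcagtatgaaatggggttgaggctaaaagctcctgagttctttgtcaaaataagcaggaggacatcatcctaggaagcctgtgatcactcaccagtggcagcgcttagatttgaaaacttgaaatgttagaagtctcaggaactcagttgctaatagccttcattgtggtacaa
Sema3d, chr5:12382916-12383165, plus strand: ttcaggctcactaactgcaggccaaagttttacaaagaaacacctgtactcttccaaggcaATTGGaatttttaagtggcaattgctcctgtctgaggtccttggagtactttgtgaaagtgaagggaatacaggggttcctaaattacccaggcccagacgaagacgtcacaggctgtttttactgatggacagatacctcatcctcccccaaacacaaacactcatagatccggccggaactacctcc

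The Sema3d window holds 1 CCAAT box, beginning 189 bases before the start and written on the opposite strand, and the Sema3a window holds none of the 5 motifs searched. These were TATAAA (the TATA box), the CCAAT box, GGGCGG (the GC box), the E-box CACGTG and the AP-1 motif TGANTCA; no matches overlap in the windows shown. RefSeq windows were found for 56 of the 64 guidance genes, among them all 17 called ones, with 26 windows. The GC box was in 15 of these 26 windows, from 11 of the 17 called genes, and in 32.7% of all 32851 windows of 250 bases. It was also in windows of many guidance genes that were not called, such as Slit3, Nrp2 and Sema5a. Called and uncalled guidance genes were not compared, and windows of the same gene are not independent. The CCAAT box was in 8 of the 26 and in 33.8% of all. The TATA box, the E-box and the AP-1 motif were each in 1 of the 26, and in 12.4%, 6.02% and 6.75% of all.

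Class 4 semaphorins are transmembrane ligands, several of which act in the immune system, and 3 of the 6 rose. Sema4a, which is made by dendritic cells and T cells and binds Plxnd1 and B plexins, had 59.8 and 67.7 CPM in the controls and 135 and 134 CPM under the knockout label. The replicates of each group were close together and the groups apart (1.07 ± 0.11 in log2 units, edgeR adjusted p = 0.00558). Sema4d, the CD100 antigen of T cells and a ligand of Plxnb1 and of Cd72, had 97.7 and 104 CPM in the controls and 136 and 143 CPM under the knockout label. This was a smaller difference, again without overlap (0.47 ± 0.10 in log2 units, edgeR adjusted p = 0.0303). Sema4f, a class 4 member expressed in brain and nerve, had 2.37 and 2.13 CPM in the controls and 5.37 and 8.32 CPM under the knockout label, a rise from a low level (1.60 ± 0.32 in log2 units, edgeR adjusted p = 0.0267). Per kilobase Sema4a was the most abundant of the class in the libraries labelled knockout, at 11.8 and 24.8 CPM per kb in controls and labelled knockout, followed by Sema4d at 13.1 and 18.2. Sema4a was called with any 1 library left out. Sema4d missed the threshold with control replicate 1 left out (edgeR adjusted p = 0.0836), control replicate 2 (0.0507), knockout replicate 1 (0.113) or knockout replicate 2 (0.191), or with the replicate number as a block (0.0675), at 0.43 to 0.52 on the log2 scale. Sema4f missed it with control replicate 1 left out (1.68, edgeR adjusted p = 0.118), control replicate 2 (1.53, 0.104) or knockout replicate 2 (1.26, 0.0511).

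Beside these ligands, all 8 T lymphocyte and all 8 B lymphocyte markers were called higher, from sums of 28.3 to 34.2 and 56.5 to 89.9 CPM in controls to 399 to 451 and 1220 to 1250 CPM. No marker of either list was at 0 in any library. Schwann cell markers rose in 4 of 9 tested cases, with sums of 165 to 192 and 250 to 281 CPM and Foxd3 and Pmp2 at 0 in every library. The other 5 did not pass: Sox10, Ngfr and Egfl8 had positive log2 fold changes, Erbb3 (−0.58) and S100b (−0.24) negative ones. Mbp, the largest part of each sum, had 76.9 and 79.4 CPM in controls and 111 and 107 CPM under the knockout label. The part of lymphocytes and Schwann cells in the semaphorin values was not tested. Sema4b and Sema4c did not pass (0.18 and −0.12). The called class 4 genes lie on chromosome 3, 88435959 to 88461182, minus strand (Sema4a), chromosome 13, 51685529 to 51793747, minus strand (Sema4d), and chromosome 6, 82911885 to 82939769, minus strand (Sema4f). Sema4g had 10.1 and 12.8 CPM in the controls and 5.16 and 18.7 CPM under the knockout label. Its value in knockout replicate 2 was 3.62 times that in replicate 1, in the library with the high intestinal markers, and the controls lay between them (0.06 ± 0.59 in log2 units, edgeR adjusted p = 0.956). With knockout replicate 2 left out, Sema4g was called lower (−1.15, edgeR adjusted p = 0.0237).

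**Figure D3:**
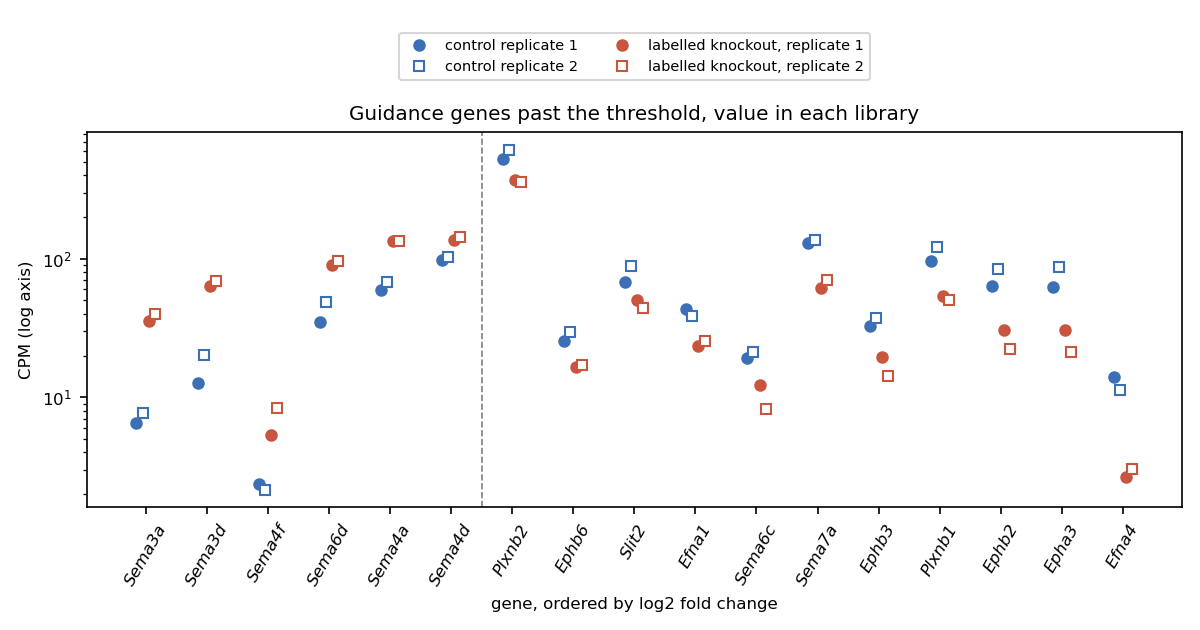
CPM (log axis) of the 17 called guidance genes in each library, ordered on the x axis from the largest rise to the largest fall; filled circles are replicate 1, open squares replicate 2, blue control and red labelled knockout, and the dashed line separates the 6 higher from the 11 lower genes. Left of the line both red symbols lie above both blue ones, right of it below, for each of the 17 genes, which were selected by a test on these same values.

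Class 5, 6 and 7 semaphorins went both ways. The called genes lie on chromosome 3, 95160457 to 95174024, plus strand (Sema6c), chromosome 2, 124089969 to 124667770, plus strand (Sema6d), and chromosome 9, 57940112 to 57962865, plus strand (Sema7a). Sema6d, a transmembrane ligand of A plexins with roles in heart development and T cells, had 34.8 and 49.1 CPM in the controls and 89.7 and 96.3 CPM under the knockout label, and rose (1.15 ± 0.18 in log2 units, edgeR adjusted p = 0.0155). Its class mate Sema6c had 19.1 and 21.2 CPM in the controls and 12.3 and 8.28 CPM under the knockout label, and fell (−0.97 ± 0.23 in log2 units, edgeR adjusted p = 0.0431). Sema6c had the largest adjusted p of the 17, and missed the threshold with control replicate 1 left out (edgeR adjusted p = 0.139), control replicate 2 (0.141) or knockout replicate 2 (0.0775, log2 fold change −0.71), with the replicate number as a block (0.0523) and with a filter on mean counts (0.0507). Sema6b, the most abundant of the class per kilobase in controls (6.65 and 7.11 CPM per kb in controls and labelled knockout; Sema6d had 3.98 and 8.81), had 26 and 26.8 CPM in the controls and 29 and 27.4 CPM under the knockout label and did not pass (0.10 ± 0.12 in log2 units, edgeR adjusted p = 0.6), nor did Sema6a (0.12). Sema7a, the only semaphorin here anchored by a lipid tail, binds Plxnc1 and integrin beta 1 and is known in immune cells and fibrosis. It had 129 and 137 CPM in the controls and 61.4 and 70.6 CPM under the knockout label, with the groups apart (−1.01 ± 0.11 in log2 units, edgeR adjusted p = 0.00746). In controls it was the second most abundant of the guidance ligands per kilobase after Slit3, at 40.3 and 20.01 CPM per kb in controls and labelled knockout. Its receptor Plxnc1 had 76.3 and 76.3 CPM in the controls and 87.4 and 98.6 CPM under the knockout label and did not pass (0.28 ± 0.10 in log2 units, edgeR adjusted p = 0.107), and its other receptor Itgb1 was lower, from 793 and 886 to 595 and 506 CPM (−0.61 ± 0.15 in log2 units, edgeR adjusted p = 0.0481); that call was lost with any 1 library left out (adjusted p from 0.0782 to 0.28), with the library total as the only scaling (0.0657), with the filter on mean counts (0.0532) and with the block (0.105). Sema5a and Sema5b, ligands with thrombospondin repeats, had negative changes without passing (−0.33 ± 0.12 and −1.36 ± 0.36, edgeR adjusted p = 0.107 and 0.0533). DESeq2 called Sema5b lower, as did edgeR without knockout replicate 1 (adjusted p = 0.0405) or knockout replicate 2 (0.0454). Macrophage markers were lower in the same libraries (6 of 8 called, summed 3900 to 4410 CPM in controls and 2570 to 2730 CPM), and their part was not tested.

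Plexins are the large semaphorin receptors whose intracellular part acts on small GTPases. Both abundant B plexins fell, Plxnb1 on chromosome 9, 109095389 to 109119917, plus strand, and Plxnb2 on chromosome 15, 89155549 to 89180788, minus strand. Plxnb2, a receptor of Sema4c and Sema4g and the most abundant guidance gene per kilobase in controls (73.5 and 46.9 CPM per kb in controls and labelled knockout; Slit3 was higher in the latter), had 520.2 and 614 CPM in the controls and 368 and 356 CPM under the knockout label (−0.65 ± 0.14 in log2 units, edgeR adjusted p = 0.0337). Plxnb1, the Sema4d receptor, had 97 and 121 CPM in the controls and 53.4 and 49.98 CPM under the knockout label (−1.07 ± 0.14 in log2 units, edgeR adjusted p = 0.00933). The groups did not overlap for either gene. Sema4d and Plxnb1 therefore moved in opposite directions between the labels. The third B plexin, Plxnb3, did not pass (−0.14 ± 0.36, 95% interval −1.06 to 0.78). Plxnb2 missed the threshold without knockout replicate 1 (edgeR adjusted p = 0.101), without knockout replicate 2 (0.153), with the library total as the only scaling (−0.55, 0.05004) or with the replicate number as a block (0.0749), whereas Plxnb1 stayed called in all 13 alternatives that refitted the data. Duct markers were lower in these libraries (9 of 10 called, summed 3350 to 4170 CPM in controls and 979 to 1120 CPM), and acinar markers too (7 of 10 called, 2270 to 11100 and 186 to 561 CPM); their part was not tested.

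The A plexins, which serve class 3 and class 6 semaphorins, did not pass by edgeR, DESeq2 or limma-voom; 1 of the 4, Plxna2, had an unadjusted p under 0.05 by edgeR. Plxna1, the most abundant of them per kilobase, had 114 and 158 CPM in the controls and 106 and 95 CPM under the knockout label (−0.44 ± 0.18 in log2 units, edgeR adjusted p = 0.137; 95% interval −0.89 to 0.01). Plxna2 had 33.3 and 44.8 CPM in the controls and 56.2 and 53.2 CPM under the knockout label (0.48 ± 0.17 in log2 units, edgeR adjusted p = 0.0971) and was called without control replicate 2 (0.71, edgeR adjusted p = 0.042). Plxna3 and Plxna4 overlapped between the groups. Plxnd1, the vascular receptor of Sema3e, had 223 and 295 CPM in the controls and 212 and 186 CPM under the knockout label, without a call (−0.38 ± 0.17 in log2 units, edgeR adjusted p = 0.177). Neuropilins, the co-receptors of class 3 semaphorins and of VEGF, were not called: Nrp1 had 187 and 201 CPM in the controls and 175 and 157 CPM under the knockout label and Nrp2 125 and 180.3 CPM in the controls and 194 and 176 CPM under the knockout label. Neither passed by any of the 3 tools, and neither had an unadjusted p under 0.05; the 95% intervals were −0.52 to 0.07 for Nrp1 and −0.22 to 0.77 for Nrp2. Neither interval reaches the log2 fold change of Sema3a or Sema3d, but the difference between these genes was not tested.

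**Figure D4:**
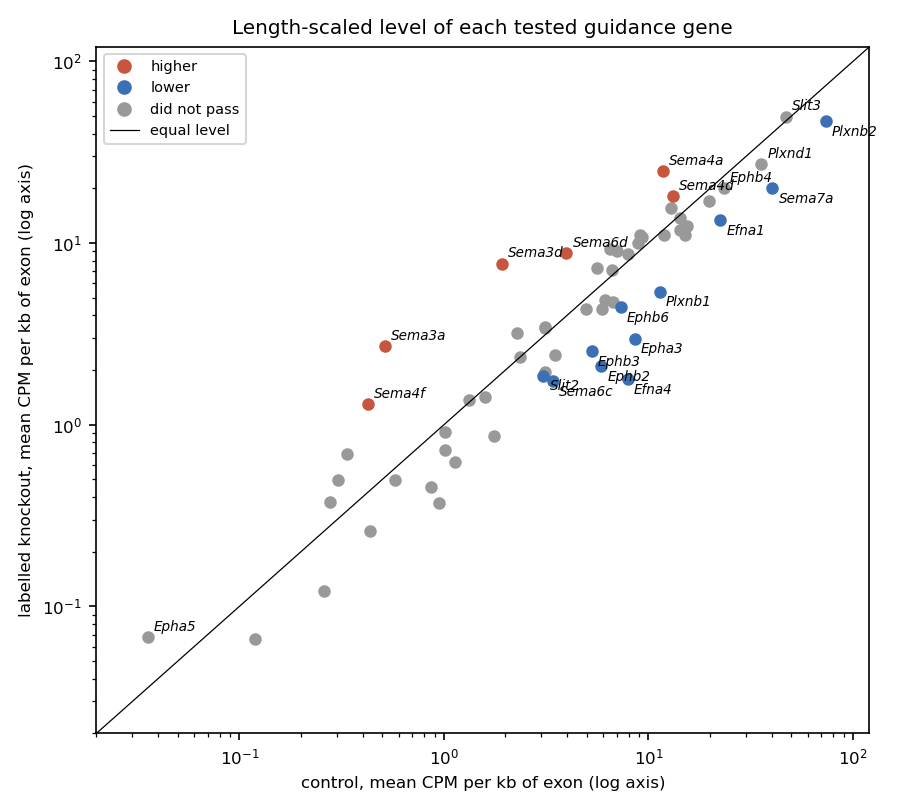
Mean level of each tested guidance gene in CPM per kilobase of merged exon, control on the x axis and labelled knockout on the y axis (both log axes), with the line of equal level; red higher, blue lower, grey did not pass. Plxnb2 and Slit3 lie at the top right, Sema3a (0.513 and 2.71) lies farthest above the line among called genes, and Efna4 (7.92 and 1.78) farthest below.

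All 8 ephrins had a negative log2 fold change and 2 of them fell. Of 11 tested Eph receptors 10 were negative and 4 fell. Of all 19134 genes tested 9584 were negative, and 9.95% were called lower. The counts of signs for ephrins and Eph receptors were the same under all 4 other scalings. Single signs turned with 1 library left out: Efna5 was positive (0.22) without control replicate 2, which left 7 of 8 ephrins negative, and without knockout replicate 2 Ephb1 was positive (0.07) and Epha5 negative. The median log2 fold change was −0.59 for ephrins and −0.72 for Eph receptors. The ephrin A ligands, held by a lipid anchor, summed to 80.4 and 82 CPM in controls and 48.6 and 49.9 CPM under the knockout label. Efna4 had 14.1 and 11.2 CPM in the controls and 2.65 and 3.05 CPM under the knockout label, a 4.43-fold fall with the groups far apart (−2.15 ± 0.24 in log2 units, edgeR adjusted p = 0.00728). Efna1, the main ligand of Epha2 and the most abundant ephrin per kilobase (22.5 and 13.4 CPM per kb in controls and labelled knockout), had 43.7 and 38.6 CPM in the controls and 23.6 and 25.3 CPM under the knockout label (−0.75 ± 0.13 in log2 units, edgeR adjusted p = 0.0188). Without control replicate 1 neither was called (Efna4 −1.97, edgeR adjusted p = 0.0514; Efna1 −0.66, 0.0787). Efna4 overlaps a gene on the other strand, 4731419I09Rik, which had 10 and 23 counts in the controls and 19 and 28 under the knockout label. Efna4 itself had 310 and 268, and 74 and 89. The overlapping gene thus weighed most under the knockout label, at up to 31.5% of the Efna4 counts. Whether the counting used strand is unknown here. Efna1 (chromosome 3, 89271733 to 89281142, minus strand), Efna3 and Efna4 (chromosome 3, 89333390 to 89338028, minus strand) lie in a row, with gaps of 32.8 and 10.4 kb. Efna3 was near the limit of detection, at 12, 17, 4 and 13 counts. Efna2 and Efna5 did not pass (−0.69 and −0.20). The ephrin B ligands, which span the membrane, did not pass by edgeR, DESeq2 or limma-voom, although 2 of the 3 had an unadjusted p under 0.05 by edgeR (Efnb3 was at −0.49 ± 0.32). Efnb1, the most abundant of them per kilobase, had 50.9 and 56.2 CPM in the controls and 44.5 and 41.5 CPM under the knockout label (−0.32 ± 0.11 in log2 units, edgeR adjusted p = 0.101), and Efnb2, the arterial ligand of Ephb4, had 38.2 and 42.8 CPM in the controls and 27.2 and 32.5 CPM under the knockout label (−0.44 ± 0.14 in log2 units, edgeR adjusted p = 0.0865).

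Among the receptors of ephrin B, 3 of 5 fell. Ephb2, which sorts epithelial cells in the gut crypt, had 63.5 and 84.3 CPM in the controls and 30.6 and 22.3 CPM under the knockout label, a 2.8-fold fall (−1.48 ± 0.22 in log2 units, edgeR adjusted p = 0.013). Ephb3, its partner in that sorting, had 32.4 and 37.6 CPM in the controls and 19.6 and 14.2 CPM under the knockout label (−1.05 ± 0.20 in log2 units, edgeR adjusted p = 0.0243), and Ephb6, a receptor without kinase activity, had 25.4 and 29.8 CPM in the controls and 16.5 and 17.1 CPM under the knockout label (−0.72 ± 0.15 in log2 units, edgeR adjusted p = 0.0279). For each of the 3 both libraries labelled knockout were below both controls. Ephb4, the venous receptor and the most abundant of the class per kilobase (23.4 and 20.1 CPM per kb in controls and labelled knockout), did not pass: it had 96.4 and 121 CPM in the controls and 95.2 and 91.4 CPM under the knockout label (−0.22 ± 0.14 in log2 units, edgeR adjusted p = 0.296; 95% interval −0.56 to 0.13). Its share of the EphB level per kilobase was 54.7% and 55.5% in controls and 66.4% and 69.1% in the libraries labelled knockout, while that of Ephb2 was 13.3% and 14.3%, and 7.85% and 6.2%. Without control replicate 1 or control replicate 2 none of the 3 calls held: Ephb2 had log2 fold changes of −1.67 and −1.27 (edgeR adjusted p = 0.0528 and 0.0552), Ephb3 of −1.15 and −0.94 (0.0895 and 0.0946), and Ephb6 of −0.83 and −0.60 (0.0651 and 0.0784). Ephb6 also lost its call without knockout replicate 1 (0.0576) or knockout replicate 2 (0.0503). Ephb1 did not pass (−0.23 ± 0.33). On GRCm38 Ephb2 lies on chromosome 4, 136647539 to 136835988, minus strand, Ephb3 on chromosome 16, 21204755 to 21223305, plus strand, and Ephb6 on chromosome 6, 41605482 to 41620509, plus strand.

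Of 6 tested EphA receptors 1 fell. Epha3 (chromosome 16, 63543534 to 63864175, minus strand), a receptor of mesenchymal cells, had 62.2 and 86.4 CPM in the controls and 30.6 and 21.1 CPM under the knockout label, a 2.88-fold fall (−1.52 ± 0.25 in log2 units, edgeR adjusted p = 0.0166). It missed the threshold with control replicate 1 left out (−1.74, edgeR adjusted p = 0.0603) or control replicate 2 (−1.27, 0.0664). Epha4 had 10.2 and 18.2 CPM in the controls and 7.45 and 6.54 CPM under the knockout label and did not pass (−1.02 ± 0.32 in log2 units, edgeR adjusted p = 0.0775); DESeq2 called it lower, as did edgeR without knockout replicate 1 (adjusted p = 0.0361). Epha2, the epithelial receptor of Efna1, had 28.5 and 33.9 CPM in the controls and 26.9 and 17.4 CPM under the knockout label (−0.50 ± 0.24 in log2 units, edgeR adjusted p = 0.198; called without knockout replicate 1, −0.85, 0.0208), Epha1 a log2 fold change of −0.55 and Epha7 of −0.75. Epha5, a neuronal receptor, was the exception in sign (0.91 ± 1.57), with counts of 6 and 22 in controls, 0 in knockout replicate 1 and 66 in knockout replicate 2. That library also had the high neuron sum, and the part of neurons in this value was not tested. Epha10 had 8 counts in knockout replicate 2 and 0 in the others. Of 8 fibroblast markers 4 fell beside these receptors, the collagens Col1a1, Col1a2 and Col3a1 and the matrix gene Lum. The collagens make up most of the list's sum (24300 to 28500 CPM in controls and 8900 to 10400 CPM). Dcn (−0.13 ± 0.16), Dpt (0.13 ± 0.34), Pi16 (0.48 ± 0.35) and Pdgfra (−0.61 ± 0.17) did not pass. The part of fibroblasts and of duct cells in the Eph values was not tested.

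The 250 bases before the RefSeq start of the 2 Eph receptors with the largest falls are printed for comparison with the class 3 semaphorins, in the same notation.

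Epha3, chr16:63864176-63864425, minus strand: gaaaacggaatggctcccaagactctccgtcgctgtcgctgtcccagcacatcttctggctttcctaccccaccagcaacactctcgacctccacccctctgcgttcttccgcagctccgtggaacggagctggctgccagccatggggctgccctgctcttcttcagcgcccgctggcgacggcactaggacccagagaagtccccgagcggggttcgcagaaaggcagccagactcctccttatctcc
Ephb2, chr4:136836013-136836262, minus strand: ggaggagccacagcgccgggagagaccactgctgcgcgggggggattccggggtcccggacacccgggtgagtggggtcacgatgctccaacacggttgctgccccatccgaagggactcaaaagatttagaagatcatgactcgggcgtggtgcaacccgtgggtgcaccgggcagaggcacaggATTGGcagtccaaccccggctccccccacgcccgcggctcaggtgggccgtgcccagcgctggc

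The Ephb2 window holds 1 CCAAT box on the opposite strand, beginning 64 bases before the start, and the Epha3 window holds none of the motifs. G and C made up 62.8% of the Epha3 and 68.4% of the Ephb2 window, against 40.8% and 46.8% for Sema3a and Sema3d. These windows were picked by the fold changes of their genes. Over all called genes the ranges overlapped: a window of Sema4a, which rose, had 64.0%, and that of Efna4, which fell, 54.4%.

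Slits are secreted repellents, and 1 of the 3 fell. Slit2 (chromosome 5, 47983138 to 48307733, plus strand), a cue that also acts on islet and vessel cells through Robo1, had 67.7 and 88.1 CPM in the controls and 50.2 and 44.3 CPM under the knockout label (−0.72 ± 0.16 in log2 units, edgeR adjusted p = 0.0338). Slit2 missed the threshold with control replicate 1 left out (−0.90, edgeR adjusted p = 0.0504), control replicate 2 (−0.52, 0.0761) or knockout replicate 2 (−0.63, 0.0534). Slit3, the most abundant ligand per kilobase (46.9 and 49.6 CPM per kb in controls and labelled knockout), had 199 and 370 CPM in the controls and 379 and 223 CPM under the knockout label. Each label thus had 1 high and 1 low library and the groups overlapped. The log2 fold change was 0.08 ± 0.38, with a negative sign without control replicate 1 (−0.30) or knockout replicate 1 (−0.36). Summed markers of pericytes and smooth muscle split the replicates the same way, at 1740 and 3720 CPM in controls and 2170 and 1280 CPM under the knockout label. Not every gene of that list did: Pdgfrb, Rgs5 and Cspg4 were lower in both libraries labelled knockout. The fibroblast marker Dpt also split like Slit3, at 220 and 359 CPM in controls and 397 and 239 CPM under the knockout label. The relation of these markers to Slit3 was not tested. Slit1 had 5.64 and 4.6 CPM in the controls and 3.26 and 2.12 CPM under the knockout label and did not pass (−0.93 ± 0.33 in log2 units, edgeR adjusted p = 0.104).

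None of the 4 Robos passed by edgeR, DESeq2 or limma-voom, and 1 had an unadjusted p under 0.05 by edgeR. This was Robo4, the endothelial member, with 29.4 and 39.7 CPM in the controls and 48.4 and 50.4 CPM under the knockout label (0.52 ± 0.17 in log2 units, edgeR adjusted p = 0.0881), and it was called without control replicate 2 (0.75, edgeR adjusted p = 0.0423). Blood endothelial markers, a list of 12 that includes Robo4, were higher in 3 cases and summed to 963 to 1270 CPM in controls and 1420 to 1500 CPM; their part in the Robo4 value was not tested. Robo1 overlapped between groups at 23.4 and 29.2 to 25.1 and 22.1 CPM (−0.16 ± 0.17), and Robo2 did not pass (0.44 ± 0.31). Robo3 lies 0.6 kb from Robo4 and had 10 to 28 counts. None of the 4 netrins passed by edgeR, DESeq2 or limma-voom, and 2 had an unadjusted p under 0.05 by edgeR, Ntn3 (lower) and Ntn5 (higher). Ntn1, the classical attractant and the most abundant netrin per kilobase, had 71.8 and 106 CPM in the controls and 102 and 70.5 CPM under the knockout label, with the replicates of each group spread across the other (−0.05 ± 0.26). The sign for Ntn1 was positive with the library total as the only scaling (0.04), without control replicate 2 (0.26) and without knockout replicate 2 (0.19). Ntn4, a basement membrane netrin, also overlapped (0.21 ± 0.18).

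**Figure D5:**
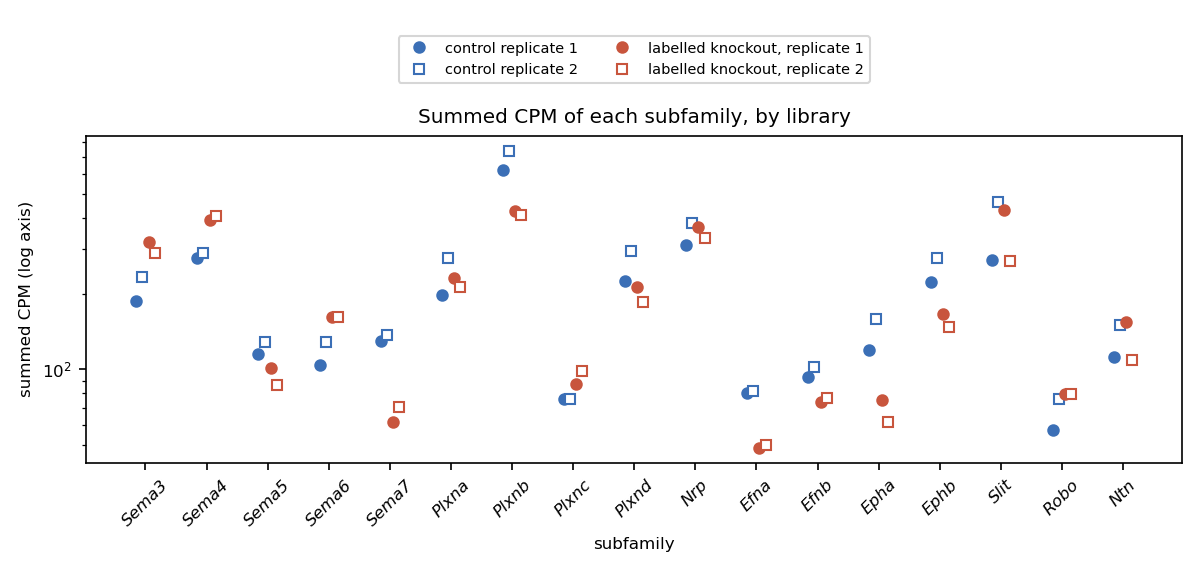
Summed CPM (log axis) of each of the 17 subfamilies in each library; filled circles are replicate 1, open squares replicate 2, blue control and red labelled knockout. Both red symbols lie above both blue ones for Sema3, Sema4, Sema6, Plxnc and Robo, and below both for Sema5, Sema7, Plxnb, Plxnd, Efna, Efnb, Epha and Ephb, while Slit, Ntn, Nrp and Plxna overlap.

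The partners of these families, 86 further genes listed by function, were called in 28 of 83 tested cases, 9 higher and 19 lower, against 12.1% and 9.95% of all genes (median log2 fold change −0.17). These counts were 3 and 10 without control replicate 1, and 12 and 11 were lower without control replicate 2 and without knockout replicate 2. Of 13 tested netrin receptors and related genes 3 rose and 2 fell. Flrt3, a ligand of Unc5 receptors, went from 15.3 and 14.8 to 36.2 and 41.2 CPM (1.36 ± 0.14 in log2 units, edgeR adjusted p = 0.00561), and Rgmb, a repulsive guidance molecule and BMP co-receptor, from 79.2 and 82 to 46.6 and 47.8 CPM (−0.77 ± 0.09 in log2 units, edgeR adjusted p = 0.008). Neo1, the receptor of Rgmb and netrins, fell with it (−0.81 ± 0.13, edgeR adjusted p = 0.0172). The netrin receptor Dcc had at most 0.274 CPM in any library and was not tested. Of 22 semaphorin and plexin partners 4 rose and 7 fell. Farp1, an exchange factor that binds class A plexins, went from 89.2 and 111 to 53.3 and 49.98 CPM (−0.96 ± 0.14 in log2 units, edgeR adjusted p = 0.0123), and Mical1, an actin-oxidising enzyme downstream of plexins, from 47.1 and 48.4 to 74.3 and 83.2 CPM (0.72 ± 0.10 in log2 units, edgeR adjusted p = 0.0123). Mical1 missed the threshold with control replicate 1 left out (edgeR adjusted p = 0.0702). Cd72, the B cell receptor of Sema4d, went from 49.1 and 44.8 to 67.2 and 67.1 CPM (0.52 ± 0.10 in log2 units, edgeR adjusted p = 0.0243), a call that was lost with any 1 library left out (adjusted p from 0.059 to 0.0931).

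Eph signal partners fell in 5 of 17 cases and the other 12 did not pass. Grb10, an adaptor of receptor tyrosine kinases, went from 316 and 341 to 157 and 141 CPM (−1.14 ± 0.12 in log2 units, edgeR adjusted p = 0.00698) and Ngef, the exchange factor called ephexin that links Eph receptors to RhoA, from 9.87 and 10.9 to 4.3 and 4.11 CPM (−1.30 ± 0.21 in log2 units, edgeR adjusted p = 0.0156). Ngef missed it with control replicate 1 left out (edgeR adjusted p = 0.0659) or control replicate 2 (0.058). Slit and Robo partners fell in 3 of 14 cases and the other 11 did not pass. Gpc1, a glypican that binds Slit2, went from 132 and 146 to 42 and 34 CPM (−1.87 ± 0.14 in log2 units, edgeR adjusted p = 0.00317) and Sdc1, a syndecan also used as a plasma cell marker, from 257 and 298 to 99.7 and 72.6 CPM (−1.69 ± 0.19 in log2 units, edgeR adjusted p = 0.00763). Of the 7 plasma cell markers, however, 3 were called higher and only 1, Sdc1, lower. Their sum was 697 and 662 CPM in the controls and 1490 and 972 CPM under the knockout label. Among 8 neuropilin co-ligands and VEGF receptors 2 rose, Kdr (71.9 and 105 to 164 and 166 CPM; 0.89 ± 0.20 in log2 units, edgeR adjusted p = 0.0335) and Flt4 (19.4 and 40.7 to 75.7 and 77.1 CPM; 1.34 ± 0.34 in log2 units, edgeR adjusted p = 0.0494). Flt4 is also a marker of lymphatic endothelium, and its call was lost with DESeq2 size factors (edgeR adjusted p = 0.0505) and with the filter on mean counts (0.059). A list of neural adhesion molecules held the L1 family (L1cam, Nrcam, Chl1 and Nfasc), contactins, Ncam1 and Alcam. Of its 9 tested genes 2 fell, Alcam and Ncam1, and neither belongs to the L1 family. The 4 L1 family genes did not pass, with L1cam at 1.17 ± 0.41 and Chl1 at 0.75 ± 0.24. Alcam went from 169 and 134 to 77.3 and 69 CPM (−1.05 ± 0.15 in log2 units, edgeR adjusted p = 0.0121) and Ncam1 from 38.6 and 61.5 to 16 and 19 CPM (−1.52 ± 0.26 in log2 units, edgeR adjusted p = 0.0181). Both libraries labelled knockout lay below both controls for each.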

How the data were processed

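RNA-seq counts of 4 mouse pancreas libraries were used, grouped by the genotype in the sample titles. Per the labels' protocols, RNA was extracted with TRIzol, purified with a DNase step and turned into libraries with a kit of Vazyme. The submitters' processing notes name, in no stated order, featureCounts 2.0.1, STAR 2.7.6a, Trim Galore 0.6.6, FastQC 0.11.9, SAMtools 1.7 and the build GRCm38. The deposited values are raw whole-number counts per gene symbol, 1 file a library. No source used here gives the annotation release, the strand setting or the treatment of multi-mapping reads. Gene positions and merged exon lengths came from GENCODE M21 (GRCm38) and promoter sequences from RefSeq (GRCm38.p6).

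Every gene past filterByExpr (19134) was tested for the effect of group in R 4.3.3 with the quasi-likelihood F test of edgeR 4.0.16, after TMM scaling, and p-values were adjusted by Benjamini-Hochberg with a threshold of 0.05. The SE was taken as the size of the log2 fold change over the root of F. The fit was tested on simulated data. Alternatives were other scalings, filters and thresholds, DESeq2 1.42.0, limma-voom (limma 3.58.1), a fit blocked on replicate number, and fits with 1 library left out.

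The guidance genes and the lists were chosen with earlier results of these data known, so no pattern here supports those results independently. Named by rule are all called guidance genes of at least 1 CPM, the most abundant member per kilobase of each subfamily, and the 2 called partners of smallest p per list. Other genes were named after their values were seen.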

Additional observations from a re-analysis of the deposited data

How the results depend on the processing

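The 17 called guidance genes kept their direction in each of the 13 refits. Sema3a, Sema3d, Sema4a, Sema6d, Sema7a and Plxnb1 were called in all 13, with log2 fold changes of 2.28 to 2.53 for Sema3a and −1.11 to −0.91 for Sema7a. All 17 were called by DESeq2 and limma-voom, and 16 with the library total as the only scaling, which moved the median of all genes to 0.097 and the share of higher calls from 54.9% to 64.9%. Leaving out 1 library gave 4 to 6 guidance genes higher and 3 to 12 lower, with a median from −0.35 to −0.05. Partners then numbered 3 to 10 higher and 10 to 17 lower, and all genes 702 to 2338 higher and 424 to 1696 lower. With knockout replicate 2 left out, Sema4g and Epha5 turned negative and were called. Over the 4 such fits Sema4g lay between −1.15 and 0.7 and Epha5 between −6.9 and 2.04 on the log2 scale (at its lowest, the only library left for Epha5 had 0 counts, so its value is no bound). The lone library of a group is there assumed to vary like the other group.

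Adjusted p under 0.01 left 3 guidance genes higher and 3 lower, 1 and 4 partners, and 644 and 323 of all genes. A 2-fold minimum left 6 guidance genes, 8 partners and 903 of all genes lower. DESeq2 called 14 partners higher. With the replicate number as a block 14 guidance genes were called (Plxnb2, Sema4d and Sema6c were lost) and 12 partners were lower. The labels give only the numbers, and deviations of same-numbered libraries correlated at −0.0502 over all tested genes, so the numbers were not taken as pairs. Epha6, Epha8 and Epha10 fell under the low-count filter and were not tested, and Robo3, with 10 to 28 counts, did not pass. For these genes a difference was neither shown nor excluded.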
